A study of Mus musculus with 4 samples.

Results

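Between the 2 libraries of macrophages from MycCaP-BMP4 tumours, 47 genes stood out in replicate 2 alone. They were chosen by their measured values: at least 5 CPM (counts per 1000000 counts in genes) in that library and at least 3 times the CPM of each of the other 3 libraries, out of 39179 genes counted. This held for 54 genes, from which 7 genes (Retnla, Chil3, Ear2, Rnase2a, Alox15, Cd163 and Lyve1) were left out by name. Chil4, the eighth gene named for leaving out, stayed under the level at 0.304 CPM. Because the values chose the genes, their height in replicate 2 is a description and no test was made of it.

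The macrophages came from tumours grown under the skin of FVB mice from MycCaP, a prostate cancer line of that strain driven by a MYC transgene, or from MycCaP-BMP4, the same line made to overexpress the secreted growth factor BMP4. Both groups thus share the FVB host and the MYC-driven tumour, and differ in BMP4. Tumours were dissociated, cells positive for CD45, CD11b and F4/80 and negative for GR1 were sorted, and polyadenylated RNA was sequenced from 2 samples per group. F4/80 appears in the titles of the MycCaP-BMP4 samples but in neither MycCaP title. The sources used here do not give the promoter of the BMP4 construct, whether the line is 1 clone, or the sex and age of the mice, and nothing says whether the samples came from separate mice. Any spread between them may therefore be technical. All values below are in the order MycCaP replicate 1, MycCaP replicate 2, MycCaP-BMP4 replicate 1 and MycCaP-BMP4 replicate 2.

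Tissue-resident macrophages carry scavenger and complement receptors that clear particles, lipids and dying cells, and their gene sets depend on the organ. Macrophages of the peritoneal cavity make several coagulation factors and serpins, and depend in part on retinoic acid, which is made by retinaldehyde dehydrogenases. IL-4 and IL-13, acting through STAT6, drive alternative activation, a state with high resistin-like and chitinase-like proteins, eotaxins and lipid uptake. Of the 47 genes, 13 were on 1 or more of 41 lists of such functions and cell types and 34 were on none. The lists with most of the genes were those of resident perivascular macrophages (5 genes), large peritoneal macrophages (4) and complement and coagulation (3).

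The libraries held 23058263 to 24967143 counts in genes, so 3 counts, taken as the floor, were worth 0.120 to 0.130 CPM. Bmp4 itself read 0.160, 0.0410, 581 and 179 CPM, so both MycCaP-BMP4 libraries carried it at high level and replicate 1 carried most. Genes of the positive sort markers were present in every library: Adgre1 (F4/80) read 791, 893, 166 and 630.2 CPM, while Ly6g, of the GR1 antigen, had no count in any. The median level of 16 pan-macrophage genes relative to the MycCaP mean was 102%, 97.5%, 23.6% and 76.2%. MycCaP-BMP4 replicate 1 thus stood apart from the other 3 libraries in its macrophage genes, and the ratios below are also given relative to that level. Epithelial markers differed the other way: the keratinocyte list summed to 59.8, 70.0, 1406 and 522 CPM and the tumour prostate epithelium list to 278, 340, 1526 and 536 CPM, above the MycCaP libraries in both MycCaP-BMP4 libraries and most in replicate 1. Their part in the levels of the 47 genes was not tested. In bulk samples, fewer macrophages and less RNA per macrophage cannot be told apart.

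The 47 genes read from 5.16 to 596 CPM in replicate 2, with a median of 14.1 CPM, and each had at least 119 counts there. Their summed level was 368, 342, 277 and 1822 CPM. The ratio of replicate 2 to the highest other library had a median of 4.64 and ran from 3.02 for St8sia6 to 27.3 for the pseudogene Gm16437, with 20 genes at 5 or more. MycCaP-BMP4 replicate 1 narrowed the choice most: without its limit 235 genes would have been taken. Counting error alone leaves the lower 95% limit of the ratio above 3 for 35 genes. The genes were chosen on this ratio, so the limits describe counting error and are no test of it. Low elsewhere did not mean absent for most: 40 of the 47 had at least 10 counts in every other library, 7 were under 1 CPM in all 3, and 1 (Cckar) had no count in 1 of them. Of the 10258 genes of at least 5 CPM in replicate 2, 10229 had at least 10 counts in every other library. Only 7 of the 10258 were under 1 CPM in all 3, and the rule takes every such gene. The limit of 3 times also favours low counts elsewhere, so nothing is read from these differences. By CPM the MycCaP replicates lay within 2-fold of each other for 35 genes and further apart for 12. With 0.5 CPM added to each, 44 lay within 2-fold, with a median difference of 0.35 on the log2 scale. The MycCaP pair was closer over the 10258 genes of at least 5 CPM in replicate 2. There 10081 lay within 2-fold, with a median difference of 0.21.

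**Figure D1:**
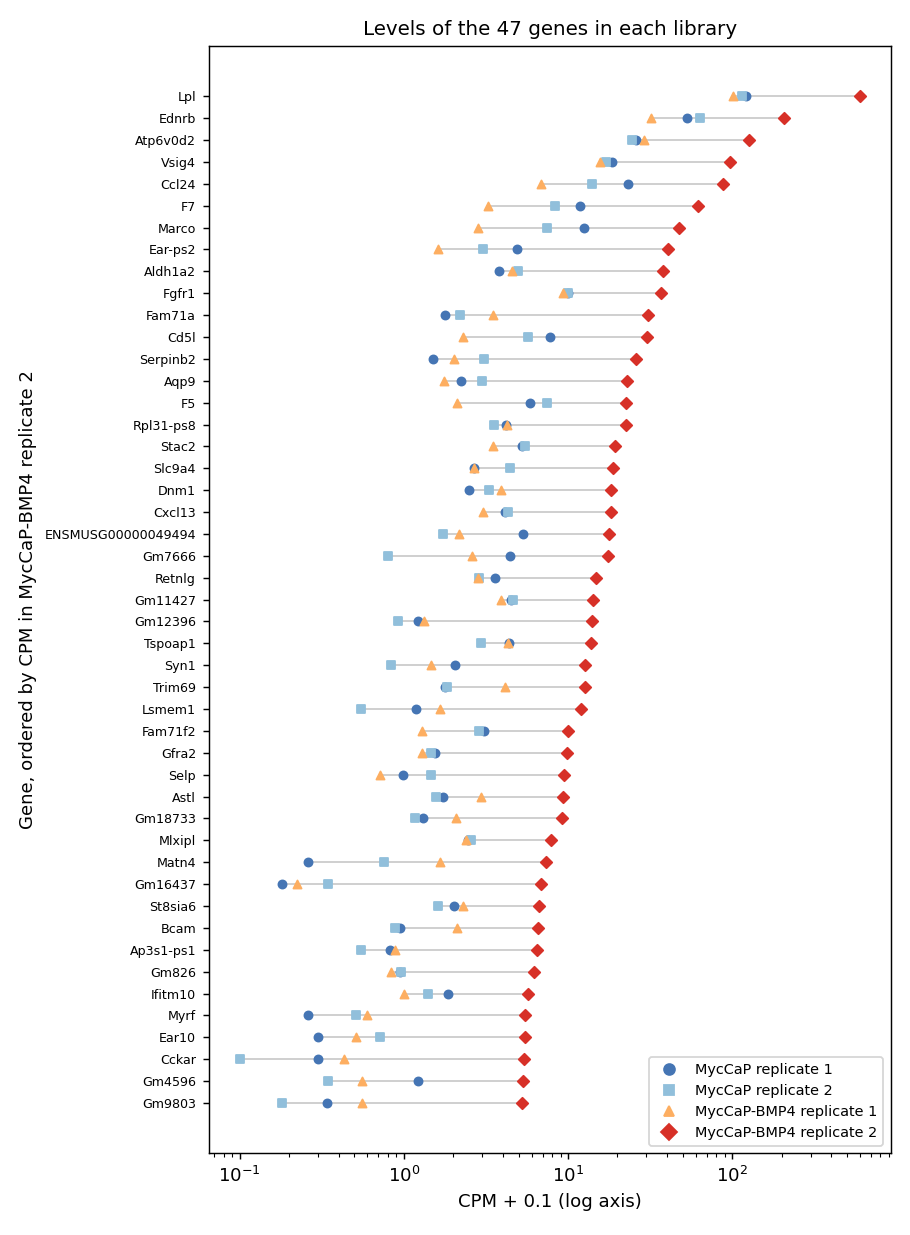
Level of each of the 47 genes (CPM + 0.1, log axis) in the 4 libraries, 1 point per library, ordered by MycCaP-BMP4 replicate 2. The red points, from 5.16 CPM for Gm9803 to 596 CPM for Lpl, lie to the right of the other 3 points in every row because the genes were chosen that way, while the other 3 points take no fixed order.

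The lines cut through a continuous range of values. Just inside the 3-fold line were St8sia6 (3.02), F5 (3.08), Trim69 and Gm11427 (both 3.12) and Mlxipl (3.17), and just outside were G0s2 (2.95), Tmem26 (2.90), Gm14023 (2.81), Camk2a (2.71) and Hal (2.70). Just inside the 5 CPM line were Gm9803 (5.16 CPM), Gm4596 (5.20 CPM), Cckar (5.29 CPM), and Ear10 and Myrf (both 5.38 CPM). Just outside it were 9430025C20Rik (4.73 CPM), Gm7535 (4.47 CPM), Cyp26a1 (4.34 CPM), E230016K23Rik (4.25 CPM) and Tarm1 (4.21 CPM). Hal, histidine ammonia-lyase, read 97.1, 77.6, 35.5 and 262 CPM, higher than most of the 47 genes, and missed them on its ratio only.

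In the comparison of the 2 groups, which asks what BMP4 from the tumour does to its macrophages, edgeR's quasi-likelihood test (Benjamini-Hochberg adjusted p) gave calls for 0 of 14075 genes (0%) and 0 of the 45 members that passed the filter on low counts, with 2680 genes at an unadjusted p under 0.05. DESeq2 called 1385 genes, and limma-voom called 0 with 2743 at an unadjusted p under 0.05. Leaving out MycCaP-BMP4 replicate 1 or replicate 2, so that the spread comes from the MycCaP pair, gave 1043 and 5753 calls. Gm16437 and Cckar did not pass the filter. Both MycCaP-BMP4 libraries lay above both MycCaP libraries for 15 of the 45 members, beside 34.4% of all genes tested (4837 of 14075). The choice of the genes used this contrast, so nothing is read from either count.

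Scavenger and clearance receptors of resident macrophages formed the first group. Vsig4 (ENSMUSG00000044206; chrX:96247203-96293438 on GRCm38 in GENCODE M21, as for all genes below), the complement receptor CRIg that binds C3 fragments, read 18.3, 16.9, 15.5 and 97.4 CPM. Its 3 lower libraries lay close together and replicate 2 was 5.31 times the highest of them (95% counting interval 4.80 to 5.88). Marco (ENSMUSG00000026390; chr1:120474538-120505024), a class A scavenger receptor for particles and bacteria, read 12.4, 7.30, 2.71 and 47.5 CPM, a ratio of 3.84 (3.38 to 4.37). In MycCaP-BMP4 replicate 1 it was well below both MycCaP libraries, whereas Vsig4 was only slightly so. Cd5l (ENSMUSG00000015854; chr3:87357881-87371073), a secreted scavenger protein of tissue macrophages also called AIM, read 7.69, 5.62, 2.18 and 30.1 CPM, with the same order of libraries and a ratio of 3.91 (3.33 to 4.61). The 250 bases before the RefSeq start of each of these genes (GRCm38.p6, 5′ to 3′ on the gene's strand) are shown to compare their upstream sequence, with matches to the 6 searched motifs in capitals; Vsig4 had no match, Marco had the PU.1 letters GAGGAAG, and Cd5l had TTCNNNNGAA of STAT6, GATAAG of the GATA factors and the PU.1 letters on the other strand.
Vsig4, chrX:96293439-96293688, minus strand: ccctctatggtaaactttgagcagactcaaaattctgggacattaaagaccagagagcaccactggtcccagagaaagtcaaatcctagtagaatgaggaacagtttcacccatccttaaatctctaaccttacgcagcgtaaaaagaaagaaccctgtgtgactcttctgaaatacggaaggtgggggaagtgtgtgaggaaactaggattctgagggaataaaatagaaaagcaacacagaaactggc
Marco, chr1:120505025-120505274, minus strand: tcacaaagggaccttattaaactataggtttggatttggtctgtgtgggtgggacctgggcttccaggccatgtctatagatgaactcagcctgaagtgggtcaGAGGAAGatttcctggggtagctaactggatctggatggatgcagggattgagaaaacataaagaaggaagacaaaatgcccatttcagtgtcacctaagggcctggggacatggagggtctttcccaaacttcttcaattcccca
Cd5l, chr3:87357631-87357880, plus strand: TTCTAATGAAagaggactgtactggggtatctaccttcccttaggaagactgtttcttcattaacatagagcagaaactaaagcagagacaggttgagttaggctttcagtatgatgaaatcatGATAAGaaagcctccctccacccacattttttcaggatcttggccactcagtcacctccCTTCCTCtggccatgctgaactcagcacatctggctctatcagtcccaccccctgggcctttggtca

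Ednrb (ENSMUSG00000022122; chr14:103814625-103844402), the endothelin receptor type B found on perivascular macrophages, was the second most abundant of the 47 by CPM. It read 53.2, 63.7, 31.9 and 206 CPM, so that MycCaP-BMP4 replicate 1 was lowest and replicate 2 was 3.24 times the highest other (3.06 to 3.43). Ccl24 (ENSMUSG00000004814; chr5:135569937-135573049), eotaxin-2, a chemokine that attracts eosinophils, read 23.0, 14.0, 6.79 and 88.3 CPM (3.85-fold; 3.51 to 4.23). MycCaP replicate 1 was above MycCaP replicate 2, and MycCaP-BMP4 replicate 1 was below both. Together with Cd163 and Lyve1, which were left out of the 47, these genes made 7 of the 29 perivascular genes above 1 CPM. Of the remaining 22, 10 were highest in MycCaP-BMP4 replicate 2. The median log2 ratio of the 22 to the MycCaP mean was 0.04 there and -1.57 in replicate 1. Among the 10 were Folr2 (325, 294, 107 and 377 CPM) and Fcna (211, 146, 108 and 409 CPM). Mrc1 (2118, 2272, 473 and 2064 CPM) and Stab1 (1975, 1837, 466 and 1286 CPM) were not highest in replicate 2. Over all 13594 genes above 1 CPM, 12.9% were highest in replicate 2, with medians of 0.04 and 0.20.

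Genes known from large peritoneal macrophages formed the second group. Serpinb2 (ENSMUSG00000062345; chr1:107511423-107535478), the plasminogen activator inhibitor PAI-2, read 1.40, 2.99, 1.93 and 25.9 CPM, 8.66 times the highest other library (6.79 to 11.2), and MycCaP replicate 2 was highest of the other 3. Cxcl13, a B cell attracting chemokine, read 4.01, 4.18, 2.92 and 18.2 CPM (4.34-fold). Selp (ENSMUSG00000026580; chr1:164115264-164150026), P-selectin, an adhesion molecule of endothelium and platelets that peritoneal macrophages also express, read 0.881, 1.35, 0.617 and 9.32 CPM (6.89-fold; 4.76 to 10.3). F5 (ENSMUSG00000026579; chr1:164151838-164220277), coagulation factor V, which starts 1.81 kb from the end of Selp on the same strand, read 5.73, 7.34, 2.02 and 22.6 CPM (3.08-fold; 2.59 to 3.67). Both of these neighbours were lowest in MycCaP-BMP4 replicate 1. Their upstream sequences, and that of Serpinb2, are printed because the genes share a locus or a known cell type; capitals mark AP-1 (TGANTCA) and the nuclear receptor half-site (AGGTCA, here as TGACCT on the other strand) in Selp, the half-site alone in F5, and C/EBP (TTGCNNAA) and AP-1 in Serpinb2.
Selp, chr1:164115014-164115263, plus strand: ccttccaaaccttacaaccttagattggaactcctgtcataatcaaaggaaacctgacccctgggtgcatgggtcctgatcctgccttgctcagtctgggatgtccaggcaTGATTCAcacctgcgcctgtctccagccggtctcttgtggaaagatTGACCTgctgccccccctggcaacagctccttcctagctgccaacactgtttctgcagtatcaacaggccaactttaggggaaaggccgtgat
F5, chr1:164151585-164151834, plus strand: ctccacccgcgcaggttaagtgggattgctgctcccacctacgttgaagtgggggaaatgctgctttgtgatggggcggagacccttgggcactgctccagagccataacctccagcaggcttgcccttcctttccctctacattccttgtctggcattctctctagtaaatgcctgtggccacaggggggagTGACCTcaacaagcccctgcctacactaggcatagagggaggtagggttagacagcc
Serpinb2, chr1:107511173-107511422, plus strand: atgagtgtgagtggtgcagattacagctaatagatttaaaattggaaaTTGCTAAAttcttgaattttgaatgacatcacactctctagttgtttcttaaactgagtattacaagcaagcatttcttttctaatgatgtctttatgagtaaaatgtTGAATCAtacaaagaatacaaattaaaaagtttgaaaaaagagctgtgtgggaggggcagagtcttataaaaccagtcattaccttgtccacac

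The marker of the peritoneal identity itself, the transcription factor Gata6, did not follow these genes: it read 1.00, 1.72, 12.9 and 3.25 CPM, highest in MycCaP-BMP4 replicate 1. Icam2 (7.97, 11.4, 4.28 and 8.07 CPM) was not highest in replicate 2 either, while Saa3 (90.5, 40.7, 16.1 and 137 CPM) was, at less than 3-fold. Of the 12 peritoneal genes above 1 CPM that are not among the 47, 6 were highest in replicate 2, with a median log2 ratio to the MycCaP mean of 0.95 in replicate 2 and -0.59 in replicate 1. Genes of mesothelium, the lining of that cavity, were at 0 for Lrrn4 and Bnc1 in all libraries, and Msln read 10.3, 18.0, 82.8 and 30.1 CPM. The part of platelets and endothelium in Selp was not tested. Itga2b, of platelets, read 0.801, 0.369, 2.14 and 2.34 CPM. The summed erythroid and platelet list (6 of 13 genes above 1 CPM) was 30.3, 31.0, 28.9 and 21.6 CPM. Of those 6 genes, 1 was highest in replicate 2. The summed endothelial list (12 of 15 genes above 1 CPM) was 60.6, 109, 72.0 and 36.7 CPM. Sele, the endothelial selectin, read 0.641, 0.779, 0.0823 and 0.390 CPM.

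F7 (ENSMUSG00000031443; chr8:13026034-13035809), coagulation factor VII, the protease that tissue factor activates, read 11.8, 8.20, 3.17 and 61.7 CPM, 5.24 times the highest other library (4.62 to 5.96). It was again lowest in MycCaP-BMP4 replicate 1. Its neighbour F10, coagulation factor X, 1.5 kb away, had the same order of libraries at 41.0, 28.0, 8.72 and 69.8 CPM and a ratio of 1.70. With Vsig4, F5 and F7, which the rule placed there, 13 of 25 complement and coagulation genes above 1 CPM were highest in replicate 2. Of the 22 others, 10 were highest in replicate 2, beside 12.9% of all genes. The median log2 ratio of the 22 to the MycCaP mean was 0.30 there and -1.86 in replicate 1. Thbd (37.4, 42.4, 13.7 and 64.5 CPM) and Pros1 (74.4, 70.9, 60.3 and 127 CPM) were among the 10. C1qa (4321, 3791, 954 and 3053 CPM) was not.

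**Figure D2:**
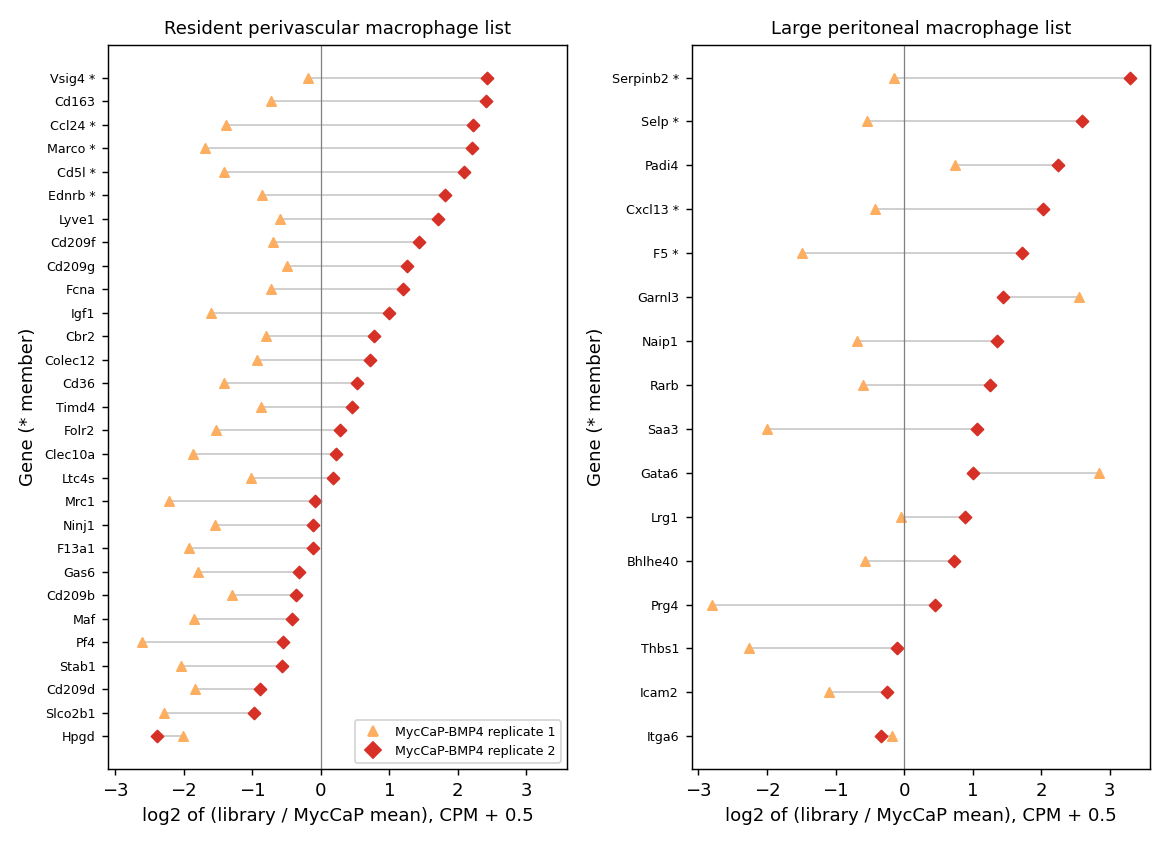
Each gene above 1 CPM on the perivascular (left, 29 genes) and peritoneal (right, 16 genes) macrophage lists, as the log2 ratio of each MycCaP-BMP4 library to the MycCaP mean (0.5 CPM added to both), with a grey line joining the 2 libraries and a star on genes among the 47. Replicate 2 lies to the right of replicate 1 for every gene but Hpgd, Garnl3, Gata6 and Itga6. The rule placed the starred genes so. The pan-macrophage level was also lower in replicate 1 (23.6% of the MycCaP mean) than in replicate 2 (76.2%), so nothing is read from this order.

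Genes of lipid handling and acidification included the most abundant of the 47. Lpl (ENSMUSG00000015568; chr8:68880491-68907448), lipoprotein lipase, which releases fatty acids from triglyceride-rich particles, read 122, 115, 101 and 596 CPM. The 3 lower libraries were close together, and replicate 2 was 4.89 times the highest of them (4.70 to 5.09). Per kilobase of merged exons in GENCODE M21, Lpl came to 56.9 CPM per kb in replicate 2, behind Ear-ps2 at 86.6 CPM per kb, Ccl24 at 68.2 CPM per kb, Vsig4 at 65.6 CPM per kb and Rpl31-ps8 at 59.0 CPM per kb. Adipocytes also make Lpl, and their part was not tested beyond the levels of their markers. Of the 14 genes on the adipocyte list 4 were above 1 CPM. Cidec and Lep had no count in any library, Adipoq was at most 0.0434 CPM, and Fabp4, shared by adipocytes and macrophages, read 57.2, 56.8, 254 and 111 CPM. Atp6v0d2 (ENSMUSG00000028238; chr4:19876841-19922605), a subunit of the vacuolar proton pump induced in osteoclasts and in IL-4-treated macrophages, read 25.9, 24.3, 29.0 and 126 CPM (4.35-fold; 4.01 to 4.73). Among osteoclast genes, Acp5 read 274, 318, 223 and 437 CPM and Dcstamp 8.09, 6.52, 6.95 and 20.1 CPM, both highest in the same library, while Ctsk (5.13, 13, 150 and 133 CPM) was high in both MycCaP-BMP4 libraries and Calcr was at or near 0. Slc9a4, a sodium-proton exchanger, read 2.56, 4.35, 2.59 and 18.6 CPM (4.27-fold), and Mlxipl, the carbohydrate response factor ChREBP, 2.36, 2.46, 2.30 and 7.81 CPM (3.17-fold).

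Aldh1a2 (ENSMUSG00000013584; chr9:71215789-71296243), the retinaldehyde dehydrogenase RALDH2 that makes retinoic acid, read 3.68, 4.88, 4.48 and 38.0 CPM. The other 3 libraries were close together and replicate 2 was 7.79 times the highest (6.43 to 9.52). Its neighbour Aqp9 (ENSMUSG00000032204; chr9:71110659-71168682), a channel for water and glycerol, lies 47.1 kb away on the other strand and read 2.12, 2.91, 1.65 and 22.7 CPM, with nearly the same ratio of 7.79 (6.07 to 10.1). In a group of retinoid genes chosen after their values were seen, 5 of the 16 above 1 CPM were highest in replicate 2. These include Aldh1a2, which the rule placed there, and the share over all genes was 12.9%. Nothing is read from this count. Cyp26a1, which degrades retinoic acid and is induced by it, read 0.200, 0.574, 0.247 and 4.34 CPM, just under the 5 CPM line, and Rarb, a receptor induced by it, 1.56, 0.697, 0.576 and 3.38 CPM. Aldh1a1, the other main retinaldehyde dehydrogenase, was instead highest in MycCaP-BMP4 replicate 1 at 391, 511, 3034 and 1183 CPM. So were Cyp26b1 (1.84, 2.95, 3.58 and 1.56 CPM) and Stra6 (2.24, 5.45, 9.25 and 2.99 CPM). A part of retinoic acid in these levels was not tested.

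Small secreted proteins linked to alternative activation and granulocytes came next. Retnlg (ENSMUSG00000022651; chr16:48872621-48874496), resistin-like gamma, known from neutrophils, read 3.48, 2.79, 2.71 and 14.8 CPM (4.24-fold; 3.34 to 5.43). Its neutrophil companions did not share this order: S100a8 read 3.44, 3.40, 13.2 and 1.65 CPM and S100a9 5.49, 7.14, 24.6 and 2.43 CPM, lowest in replicate 2, and Ly6g had no count. Of the 13 neutrophil genes above 1 CPM, Retnlg alone was highest in replicate 2. Retnlg lies 28.2 kb from Retnla, whose transcript it matches at 82.8% identity and which read 146, 76.7, 215 and 4599 CPM. On the list of alternative activation, 15 of 32 genes above 1 CPM were highest in replicate 2, of which 7 met the rule (Ccl24, Atp6v0d2 and 5 left-out genes). Of the 25 others, 8 were highest in replicate 2, beside 12.9% of all genes, with a median log2 ratio to the MycCaP mean of -0.09 there. Arg1, the arginase of that state, was highest in replicate 2 without meeting the rule, at 681, 605, 92.5 and 1060.4 CPM. How reads were divided between Retnla and Retnlg was not tested. Its upstream sequence, shown because it held matches to 3 motifs, has STAT6, C/EBP and half-site letters in capitals.
Retnlg, chr16:48872358-48872607, plus strand: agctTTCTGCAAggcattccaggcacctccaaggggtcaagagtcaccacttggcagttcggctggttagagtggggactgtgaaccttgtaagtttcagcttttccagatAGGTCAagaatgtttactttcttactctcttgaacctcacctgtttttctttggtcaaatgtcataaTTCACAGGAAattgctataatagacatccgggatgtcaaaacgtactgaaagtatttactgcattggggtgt

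Ear10 and Ear-ps2, both of the eosinophil-associated ribonuclease family, lie 123 kb apart on chromosome 14 beside the left-out Ear2. Ear-ps2 (ENSMUSG00000072599; chr14:44046985-44047450), annotated as a pseudogene, read 4.77, 2.95, 1.52 and 40.4 CPM (8.47-fold; 6.99 to 10.3), and Ear10 (ENSMUSG00000090166; chr14:43922720-43923559) read 0.200, 0.615, 0.411 and 5.38 CPM (8.74-fold; 5.10 to 16.1). Ear1, in the same cluster, read 0.320, 0.246, 0.0823 and 3.51 CPM. The transcripts are close copies: Ear-ps2 matches Ear10 at 98.3% and Ear10 matches Ear2 at 94.5% identity, so the levels of single members are uncertain. Eosinophils carry these ribonucleases too, but Prg2 and Prg3, their granule proteins, had no count in any library, Epx reached 0.0434 CPM in replicate 2 alone, and Siglecf read 0.961, 1.11, 0.123 and 1.43 CPM. The 12 eosinophil genes, Ear2 included, summed to 122, 139, 31.8 and 217 CPM, with 6 above 1 CPM and 5 of these highest in replicate 2. Without Ear2 the sums were 114, 132, 25.5 and 113 CPM, not highest in replicate 2. Of the 5 genes then above 1 CPM, 4 were still highest in replicate 2, beside 12.9% of all genes. The median log2 ratio of the 5 to the MycCaP mean was 0.33 there. The part of eosinophils was not tested beyond these levels.

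Receptors and signalling genes included Fgfr1 (ENSMUSG00000031565; chr8:25513654-25575718), a fibroblast growth factor receptor, which was nearly equal in 3 libraries and 3.71 times higher in replicate 2 (9.89, 9.84, 9.25 and 36.7 CPM). Gfra2, a co-receptor for neurturin, read 1.44, 1.35, 1.19 and 9.80 CPM (6.80-fold). Cckar, a cholecystokinin receptor, read 0.200, 0, 0.329 and 5.29 CPM, the second largest ratio at 16.1 but with a wide counting interval (7.91 to 38.1). None of these receptors was on a list.

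Several genes named for nerve and muscle were also among the 47. Dnm1, the dynamin of synaptic vesicle endocytosis, read 2.40, 3.20, 3.83 and 18.2 CPM. Syn1, a synaptic vesicle protein, read 1.96, 0.738, 1.36 and 12.6 CPM and Tspoap1, a binding partner of presynaptic RIM proteins, 4.25, 2.87, 4.24 and 13.7 CPM. Stac2, an adaptor of voltage-gated calcium channels, read 5.13, 5.33, 3.37 and 19.3 CPM, and Myrf, the transcription factor of myelination, 0.160, 0.410, 0.494 and 5.38 CPM. Their ratios ran from 3.22 for Tspoap1 to 10.9 for Myrf. No gene of the nerve and Schwann cell list was among the 47 and none of its 6 genes above 1 CPM was highest in replicate 2. Dnm1 overlaps Ciz1 on the other strand (32.6, 37.1, 46.7 and 38.9 CPM), and Syn1 overlaps Araf (43.0, 55.3, 90.6 and 65.4 CPM) and Timp1 (10.5, 10.7, 32.2 and 44.6 CPM). Of these only Timp1 was highest in replicate 2, and without a stated strand setting of the counting, reads of such pairs cannot be told apart.

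The remaining coding genes were of mixed kind. Fam71a (ENSMUSG00000091017; chr1:191162584-191164817) read 1.68, 2.09, 3.41 and 30.5 CPM (8.93-fold; 7.11 to 11.4) and Fam71f2, of the same family name but on another chromosome, 2.96, 2.79, 1.19 and 9.93 CPM (3.35-fold). Matn4, a matrilin of the extracellular matrix, read 0.160, 0.656, 1.56 and 7.29 CPM and Bcam, a laminin receptor, 0.841, 0.779, 2.02 and 6.46 CPM; both were higher in MycCaP-BMP4 replicate 1 than in the MycCaP libraries. Matn4 overlaps Rbpjl on the other strand, which read 0.200, 0.0820, 0.411 and 2.26 CPM. The same order held for Trim69, a TRIM ubiquitin ligase (1.68, 1.72, 4.03 and 12.6 CPM), Lsmem1, a small membrane protein (1.08, 0.451, 1.56 and 12.0 CPM), and Astl, the oocyte protease ovastacin (1.64, 1.48, 2.84 and 9.28 CPM). St8sia6, a sialyltransferase, read 1.92, 1.52, 2.18 and 6.59 CPM, Ifitm10, of the interferon-induced transmembrane family, 1.76, 1.31, 0.905 and 5.59 CPM, and Gm826 0.841, 0.861, 0.740 and 6.11 CPM. One identifier, ENSMUSG00000049494, had no entry in the annotation used and read 5.25, 1.64, 2.06 and 17.6 CPM, with MycCaP replicate 1 well above MycCaP replicate 2.

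Pseudogenes made up 9 of the 47 (19.1%), against 1.46% of the 10258 genes of at least 5 CPM in replicate 2. Gm16437 had the largest ratio of all at 0.0801, 0.246, 0.123 and 6.72 CPM (12.3 to 75.6), Gm12396 read 1.12, 0.820, 1.23 and 14.0 CPM and Ap3s1-ps1 0.721, 0.451, 0.781 and 6.38 CPM. Of the 9, 8 match another transcript at 90% identity or more over at least 50% of their length, as do 2 of the 37 coding genes, Ear10 and Gm9803. Apart from the Ear genes, whose copies were high too, the coding genes they copy were not highest in replicate 2. Psenen, identical to Gm12396, read 54.0, 44.1, 31.1 and 23.7 CPM; Rpl31, identical to Rpl31-ps8 (4.09, 3.44, 4.15 and 22.3 CPM), read 126, 358, 555 and 307 CPM. Iscu, at 98.4% identity with Gm16437, read 44.3, 53.5, 42.4 and 43.8 CPM, Ap3s1, at 99.1% with Ap3s1-ps1, read 68.8, 68.7, 54.1 and 61.7 CPM, and Ube2d3, at 97.3% with Gm4596 (1.12, 0.246, 0.452 and 5.20 CPM), read 256, 366, 310.0 and 319 CPM. Gm9803 (0.240, 0.0820, 0.452 and 5.16 CPM) is identical over its aligned part to Pam16, which read 10.3, 8.98, 22.7 and 11.3 CPM. Gm7666 (4.33, 0.697, 2.51 and 17.5 CPM) copies Phb and lies inside Fyb (237, 222, 58.2 and 183 CPM) on the same strand, and Gm11427 (4.37, 4.51, 3.78 and 14.1 CPM) copies Slfn4. Gm18733 (1.2, 1.07, 1.97 and 9.06 CPM) had no such copy. The counts of these genes can depend on how reads with several matches were treated, and their levels are uncertain.

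The same choice applied to each other library gave gene sets of another size and makeup. MycCaP replicate 1 gave 12 genes, of which 11 were pseudogenes, and MycCaP replicate 2 gave 12, of which 7 were pseudogenes and 5 protein-coding. MycCaP-BMP4 replicate 1 gave 289 genes with 6 pseudogenes, or 2.08%. Coding genes numbered 0 and 5 in the MycCaP sets, 275 in that of MycCaP-BMP4 replicate 1 and 37 in that of replicate 2. Only the replicate 2 set had genes left out by name, and before that it held 54 genes, 44 of them coding. These sets come from the same 4 libraries and were not tested against each other.

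The 47 genes were spread over 18 chromosomes with at most 6 on 1. Apart from the neighbours already given (Selp and F5, Aldh1a2 and Aqp9, Ear10 and Ear-ps2, Retnlg and Retnla), 33 of 249 other genes of at least 1 CPM within 200 kb were highest in replicate 2, beside the 12.9% of all genes given above. Of the 249, 5 reached 3 times each other library: Ear1, Mpo, Terb2, H2-Q3 and Ceacam19, all under 5 CPM. Il1rl1, the IL-33 receptor, 115 kb from Slc9a4, read 4.69, 7.42, 4.15 and 15.7 CPM, a ratio of 2.12, whereas Il18r1 and Il18rap, nearer to Slc9a4, read 7.33, 9.80, 3.33 and 1.04 CPM and 5.61, 5.09, 1.07 and 0.954 CPM, lowest in replicate 2. Mpo, 7.65 kb from Tspoap1, read 0.0801, 0.697, 0.740 and 4.16 CPM. These neighbours were chosen after their values were seen. A gene of at least 1 CPM overlapped 8 of the 47, 6 of them on the other strand.

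RefSeq start windows were matched for 26 of the 47 genes (34 windows of 250 bases on GRCm38.p6), and 6 motifs were searched on both strands. The nuclear receptor half-site AGGTCA was in 9 windows (26.5%) against 14.0% of all 32851 windows, AP-1 (TGANTCA) in 6 (17.6%) against 6.75%, and C/EBP (TTGCNNAA) in 6 (17.6%) against 9.56%. STAT6 (TTCNNNNGAA) was in 4 (11.8%) against 5.85%, PU.1 (GAGGAAG) in 3 (8.82%) against 10.6%, and the letters GATAAG bound by GATA factors in 2 (5.88%) against 6.55%. Some windows of 1 gene overlap, as for Serpinb2 and Ifitm10, and count 2 times for the same letters. These are matches of letters, given as a description.

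The rule sets an upper limit on each of the 3 lower libraries and does not name their order. The limit does remove genes that are high in MycCaP-BMP4 replicate 1: without it 235 genes would have been taken. The values of that library below are thus shaped in part by the choice. In MycCaP-BMP4 replicate 1, 21 of the 47 lay below both MycCaP libraries, 16 above both and 10 between. The median log2 ratio to the MycCaP mean (0.5 CPM added) was -0.09, with quartiles of -0.51 and 0.26, from -1.69 for Marco to 1.18 for Matn4. Over the 10258 genes of at least 5 CPM in replicate 2 the median was 0.22, with 35.1% below both and 54.6% above both, and all 16 pan-macrophage genes lay below, at a median of -2.08. By CPM the middle of the 47 genes lay near the MycCaP level in this library, whose macrophage genes were at 23.6% of it. The upper limit favours low values here, so nothing is read from the difference to the 10258 genes. The lowest values were those of Marco, F7, F5, Cd5l and Ccl24, followed by Ear-ps2 and Fam71f2.

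**Figure D3:**
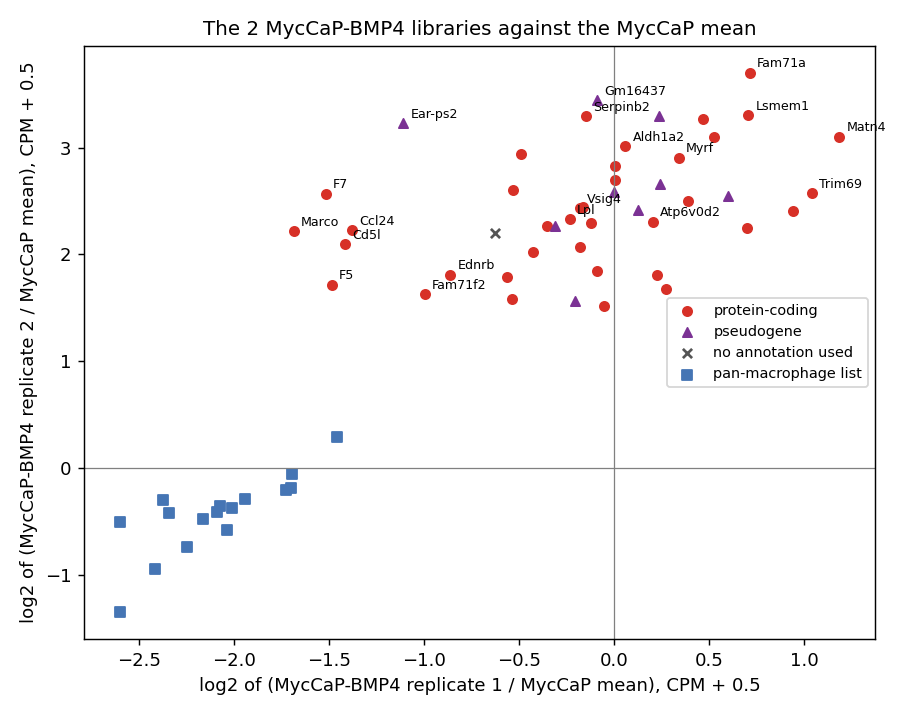
Log2 ratio to the MycCaP mean (0.5 CPM added to both) in MycCaP-BMP4 replicate 1 (horizontal) and replicate 2 (vertical) for the 47 genes and 16 pan-macrophage genes. The 47 genes all lie high on the vertical axis by choice and spread from -1.69 to 1.18 on the horizontal axis, while the blue squares lie to the left of -1.4.

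With MycCaP-BMP4 replicate 2 left out, edgeR's quasi-likelihood test takes its spread from the MycCaP pair and assumes that the lone MycCaP-BMP4 library varies likewise. It called 6 of 45 members lower (20.2% of all 14855 genes tested were called lower) and 0 higher (18.5%). The 6 were Marco (log2 fold change -2.11), F5 (-1.93), F7 (-1.90), Cd5l (-1.85), Ccl24 (-1.69) and Ednrb (-1.11). The selection used these libraries too, as an upper limit, so the counts are given as a description.

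Relative to the pan-macrophage level the ratios were smaller for most of the genes. Scaled so, 16 of the 47 kept a ratio of at least 3 and 44 a ratio above 1, with a range of 0.938 for St8sia6 to 16.9 for Gm16437. F7 (6.04), Marco (5.16), Selp (4.69), Cd5l (4.28), Aqp9 (4.28), Serpinb2 (4.16), Ccl24 (4.04) and F5 (3.48) were among those that kept it. Lpl did not, at 1.84, nor did Vsig4 (1.95), Atp6v0d2 (1.35) or Aldh1a2 (2.63). Of the 10258 genes of at least 5 CPM in replicate 2, these and the left-out genes included, 22 reached 3 and 385 were above 1. The rule placed all 47 at 3 or more by CPM, so nothing is read from these counts. On this scale 46 of the 47 lay above both MycCaP libraries in MycCaP-BMP4 replicate 1, as did 94.8% of the 10258 genes of at least 5 CPM.

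**Figure D4:**
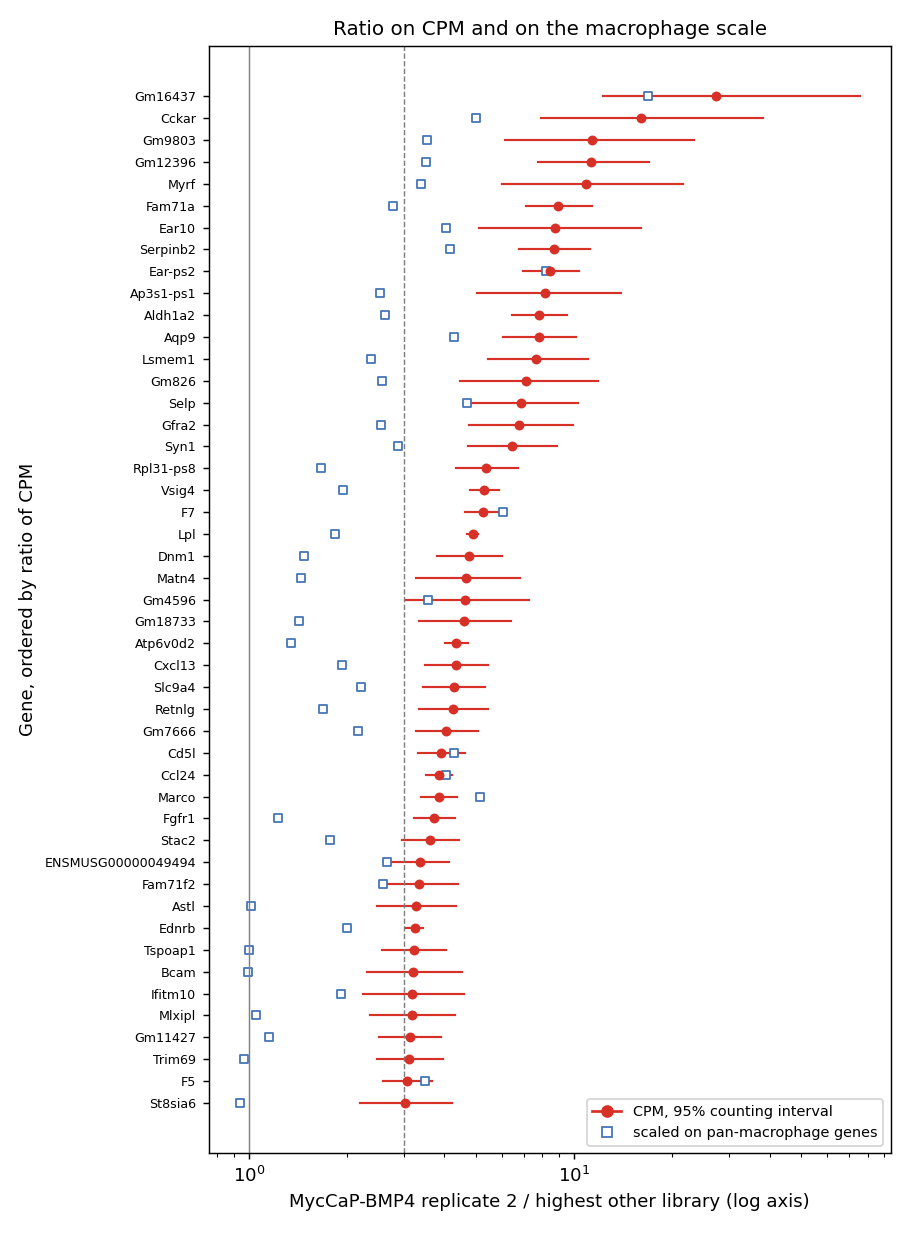
Ratio of MycCaP-BMP4 replicate 2 to the highest other library (log axis) for each of the 47 genes, by CPM with its 95% counting interval (red) and after scaling on the pan-macrophage genes (blue squares). The dashed line marks 3; by CPM all genes lie above it by choice, and after scaling 16 do.

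Of the 41 lists, 31 held none of the 47 genes, among them those of T and NK cells, dendritic cells, fibroblasts, keratinocytes, tumour epithelium, the interferon response and the BMP targets. Mast cell genes, none of them among the 47, also differed between the libraries: Tpsab1 read 0.921, 6.73, 13.7 and 20.1 CPM, Cpa3 0.841, 2.67, 5.22 and 9.58 CPM and Mcpt4 0.521, 3.12, 5.84 and 9.41 CPM, and the sum of the list's 12 genes was 9.85, 27.4, 45.2 and 66.0 CPM. Ms4a2 read at most 0.160 CPM. Of the 7 mast cell and basophil genes above 1 CPM, 5 were highest in replicate 2. Their part in the levels of the 47 genes was not tested.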

How the data were processed

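For 4 libraries the authors deposited 1 integer count per gene. HTSeq, STAR 2.6.0b, RSEM, Bowtie2 2.2.3 and the build GRCm38 (mm10) are named in the submitters' processing notes. Per the labels' protocols the libraries came from polyadenylated RNA with a directional kit and were read in pairs. Not given in the sources used here were the strand setting, the treatment of reads with several matches and the annotation release. Lines that name no gene (14.6% to 19.4% of a library's reads) were left out of all totals.

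CPM were computed on gene counts of 39179 identifiers, 37607 of which had a symbol in the reference table; coordinates and exon lengths came from GENCODE M21. Intervals of ratios are exact binomial (Clopper-Pearson) at 95% and cover counting error only. Group fits used filterByExpr, TMM factors and edgeR 4.0.16 (quasi-likelihood F test, two-sided, no covariate, Benjamini-Hochberg adjusted p under 0.05), with DESeq2 1.42.0 and limma 3.58.1 as alternatives, and were tested on simulated data. A library's macrophage level is its median, over 16 pan-macrophage genes, of CPM divided by the MycCaP mean. Transcripts were compared with BLAST 2.17.0. The members, the lists and the rule for named genes were chosen with earlier results of these data known. The rule named the 20 members of highest CPM, the 20 of largest ratio, up to 5 per list, members within 200 kb of each other or of 1 family, and the 5 genes on each side of each line; the remaining members are given for completeness. Other genes named, such as F10, Thbd and Pros1, were chosen after their values were seen. Alternatives were other scalings, filters, levels and ratios, the replicate number as a block, and each library left out.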

Additional observations from a re-analysis of the deposited data

How the results depend on the processing

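The count of genes called between the groups was 0 as reported, 65 with library size alone, 1109 with no filter, 1385 with DESeq2's test and 0 to 5753 with 1 library left out (1043 without MycCaP-BMP4 replicate 1, 5753 without replicate 2). With the replicate number as a block it was 2, and with the numbers crossed, a pairing added after the data were seen because same-numbered libraries' deviations correlated at -0.127, it was 689. The numbers do not show a pairing. The count of 47 genes became 21 with pan-macrophage scaling (16 shared), 119 at 1 CPM, 29 at 10 CPM, 92 at 2 times, 20 at 5 times and 53 to 235 with 1 other library left out, the 235 without MycCaP-BMP4 replicate 1. The median log2 ratio of MycCaP-BMP4 replicate 1 to the MycCaP mean was -0.28 on TMM library sizes, 1.72 with pan-macrophage scaling, where its direction reversed, -0.18 with 0.1 CPM added, and -0.08 to -0.09 with 1 MycCaP library left out. Of the 47 single ratios, 46 stayed within their counting interval on TMM library sizes and 7 with pan-macrophage scaling. The cause of these differences was not tested.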
